A study of Homo sapiens with 6 samples.

Results

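MER41 is a primate endogenous retrovirus, and 7 of the 15641 repeat entries counted here belong to it: the internal region MER41-int and the long terminal repeats MER41A, MER41B, MER41C, MER41D, MER41E and MER41G. They were chosen by name, and each was found in the count table. RNA bound to chromatin was sequenced from H9, an established line of human embryonic stem cells, in 3 libraries of naive cells, kept in RSeT medium, and 3 libraries of primed cells. The state was read from the treatment label, since a single growth protocol, in RSeT, is given for naive and primed samples alike. No other treatment is labelled. Separate cultures are not stated either, so a p-value here reflects how far these libraries differ among themselves, which may be a technical spread.

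An integrated retrovirus consists of an internal region, which once coded for the viral proteins, between a pair of long terminal repeats (LTRs), which carry the promoter and enhancer sequences. Recombination between the LTRs often removes the internal region and leaves a solitary LTR behind. MER41 LTRs are known in human cells as enhancers of the interferon response, and a MER41 copy beside AIM2, a sensor of DNA in the cytosol, is a known example. The table sums the reads of all copies of a repeat under its name, so no value belongs to a single locus, and interferon-responsive genes were not analysed here.

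Total counts were between 9748202 and 17791046 in naive libraries and were 7192242, 118793 and 8106871 in primed libraries 1 to 3. CPM are counts scaled to a common library total, and in the shallow primed library 2 only 3 counts make 25.3 CPM. Alpha satellite, the tandem repeat of centromeres, took between 25.3% and 42.9% of counts in naive libraries and between 0.221% and 0.625% in primed libraries, which lowers the share of every other repeat in naive libraries. TMM scaling, which sets the libraries to a common level over most repeats, was therefore used, with factors between 0.628 and 0.903 in naive and between 1.10 and 1.51 in primed libraries. The repeat families that stand in for cell markers were detected in both states. HERVH-int and LTR7, known for their activity in human pluripotent cells, summed to between 25179 and 44016 CPM in naive libraries, against 12503 to 16996 CPM in primed libraries. HERVK-int, LTR5_Hs and LTR7Y, linked to the early embryo, summed to between 6207 and 15493 CPM in naive and between 1104 and 1286 CPM in primed libraries. HERVK-int, with a naive mean of 10797 CPM, made up most of that sum. Of these 3 repeats 2 were called higher in naive cells. LTR7Y was not called (edgeR adjusted p = 0.0686), and its groups overlapped. HERV17-int and LTR17, of the HERV-W group that includes syncytin-1 of trophoblast, were not at 0 in either state and summed to between 495 and 587 CPM in naive and between 269 and 452 CPM in primed libraries, with 1 of the 2 called higher in naive cells.

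The question was whether chromatin of naive cells holds more or less MER41 RNA than that of primed cells. With TMM scaling, MER41-int was 1.55-fold higher in naive cells and passed the test. Of the 6 LTR entries 0 passed it by edgeR and 0 by DESeq2, with 1 of them, MER41B, at an unadjusted p under 0.05 by each tool. Their log2 changes by edgeR were between -0.33 for MER41G, the entry below 0, and 0.39. MER41 thus had 1 of 7 entries called higher and 0 called lower, against 4.94% higher and 7.77% lower of the 3219 repeats tested, and 10.4% higher and 1.19% lower of the 1265 named repeats (those that are not simple tandem repeats). A single call among 7 is near the background of named repeats. The median log2 change of the 7 entries was 0.28, beside 0.21 for all named repeats tested and -0.0046 for all repeats tested.

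MER41-int, the internal region, had 589, 811 and 575 TMM-normalised CPM in naive libraries 1 to 3, against 415, 408 and 444 CPM in primed libraries 1 to 3. The groups did not overlap, and naive library 2 stood above the other 2 naive libraries. Naive libraries averaged 658 ± 133 CPM and primed libraries 422 ± 19.2 CPM (SD, n = 3 each). This is a log2 change of 0.64 ± 0.15 (SE; adjusted p = 0.0266 by the quasi-likelihood test of edgeR). The value for primed library 2 rests on 73 counts, with a 95% Wilson interval of 489 to 773 CPM of its unscaled total, and without that library the call was kept (log2 0.63, edgeR adjusted p = 0.0384). The call was lost without naive library 2 (log2 0.49, edgeR adjusted p = 0.0929) and without primed library 1 (0.60, 0.165). Calls fell over the named repeats too, to 44 of 1277 higher and 7 of 1275 higher in these fits, against 131 of 1265 with all libraries. Naive library 2 also had the largest share of alpha satellite (42.9%) and the smallest TMM factor (0.628), and the part of these in its high value was not tested.

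**Figure D1:**
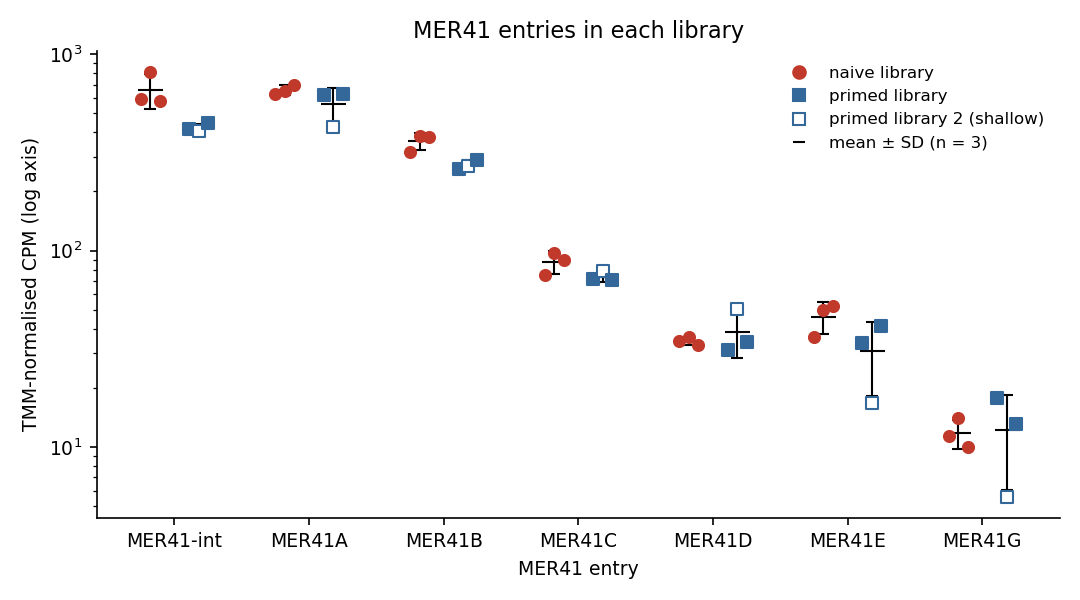
TMM-normalised CPM (log axis) of the 7 MER41 entries in each library, with naive libraries as circles left of primed libraries as squares, the shallow primed library 2 as an open square, and bars for the mean ± SD (n = 3). Groups are apart for MER41-int and MER41B and overlap for the other 5 entries, and the open square lies far from its group for MER41A, MER41D, MER41E and MER41G.

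MER41B, an LTR entry of the family, came nearest to the threshold among the LTRs. It had 318, 381 and 379 CPM in naive libraries 1 to 3, against 260, 269 and 290 CPM in primed libraries 1 to 3. The groups did not overlap, yet the log2 change of 0.39 ± 0.13 (SE) did not pass over all repeats (edgeR adjusted p = 0.0686). Without naive library 1 it passed (log2 0.50, edgeR adjusted p = 0.0382). In that fit 203 of 1271 named repeats were called higher, against 131 of 1265 with all libraries. Groups that do not overlap, naive above primed, were found for 2 of the 7 entries, against 36.0% of all named repeats and 19.4% of all repeats tested. The opposite order, primed above naive, was found for 0 of the 7, against 3.24% of named repeats and 11.0% of all repeats tested.

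MER41A, the LTR entry with the most counts, had 625, 649 and 698 CPM in naive libraries 1 to 3, against 618, 425 and 629 CPM in primed libraries 1 to 3. The groups overlapped in a narrow range, and primed library 2 lay far below the other primed libraries. The log2 change was 0.21 ± 0.15 (SE; edgeR adjusted p = 0.370), and 0.09 without primed library 2. MER41C had 74.7, 97.7 and 89.9 CPM in naive libraries, against 71.3, 78.3 and 71.2 CPM in primed libraries, with overlapping groups (log2 0.28 ± 0.15; edgeR adjusted p = 0.223).

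The 3 entries with the fewest counts were measured least firmly. MER41E had 36.3, 49.6 and 52.1 CPM in naive libraries, against 34.03, 16.8 and 41.3 CPM in primed libraries. Its groups overlapped, and the low primed value is 3 counts in the shallow library (log2 0.36 ± 0.22, SE; edgeR adjusted p = 0.274). MER41D had 34.5, 36.1 and 32.9 CPM in naive libraries, against 31.2, 50.3 and 34.1 CPM in primed libraries. The high primed value rests on 9 counts, and the change was 0.0099 ± 0.18 (log2, SE; edgeR adjusted p = 0.982). MER41G had 11.4, 14.0 and 10.04 CPM in naive libraries, against 17.8, 5.59 and 13.1 CPM in primed libraries. Its groups overlapped, with 1 count in primed library 2 and a log2 change of -0.33 ± 0.28 (SE; edgeR adjusted p = 0.458). Without that library the change was -0.38 (edgeR adjusted p = 0.310).

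The entries cannot be ranked by expression level, because the number and length of their genomic copies were not used here. As raw reads, MER41A (33950 counts over the 6 libraries), MER41-int (30234) and MER41B (17454) held most of the family. MER41C had 4321 counts, MER41E 2303, MER41D 1773 and MER41G 673. Near-identical copies can share reads between these entries, so their separate values are uncertain to that extent.

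Summed over the 7 entries, MER41 was at 1689, 2039 and 1836 TMM-normalised CPM in naive libraries 1 to 3, against 1447, 1253 and 1522 CPM in primed libraries 1 to 3. The means were 1855 ± 176 and 1408 ± 139 CPM (SD, n = 3), 1.32-fold higher in naive cells, and the groups did not overlap. The direction of the sum depended on what it was set against. As a share of all counts, MER41 was lower in naive libraries, at 0.152%, 0.128% and 0.157%, against 0.159%, 0.189% and 0.189% in primed libraries, again without overlap. The share in primed library 2 has a 95% Wilson interval of 0.165% to 0.215%, which covers counting error only. With alpha satellite and ribosomal RNA taken out of the total, MER41 was higher in naive libraries, at 0.237% ± 0.0134 against 0.199% ± 0.0060 in primed libraries (SD, n = 3). MER41-int on this scale had 774, 987 and 749.9 CPM in naive libraries, against 556, 645 and 600.2 CPM in primed libraries. These groups too did not overlap.

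Within the 532 entries with retroviral names, MER41 held a smaller part of the counts in naive libraries. It took 1.20%, 1.19% and 1.30% in naive libraries 1 to 3, against 1.44%, 1.32% and 1.42% in primed libraries 1 to 3. With HERVH-int, LTR7, HERVK-int, LTR5_Hs and LTR7Y left out of that total, a denominator chosen after the values were seen, MER41 averaged 1.74% ± 0.0862 over naive libraries and 1.66% ± 0.109 over primed libraries (SD, n = 3 each), and the groups overlapped. These sums are descriptions without a test.

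**Figure D2:**
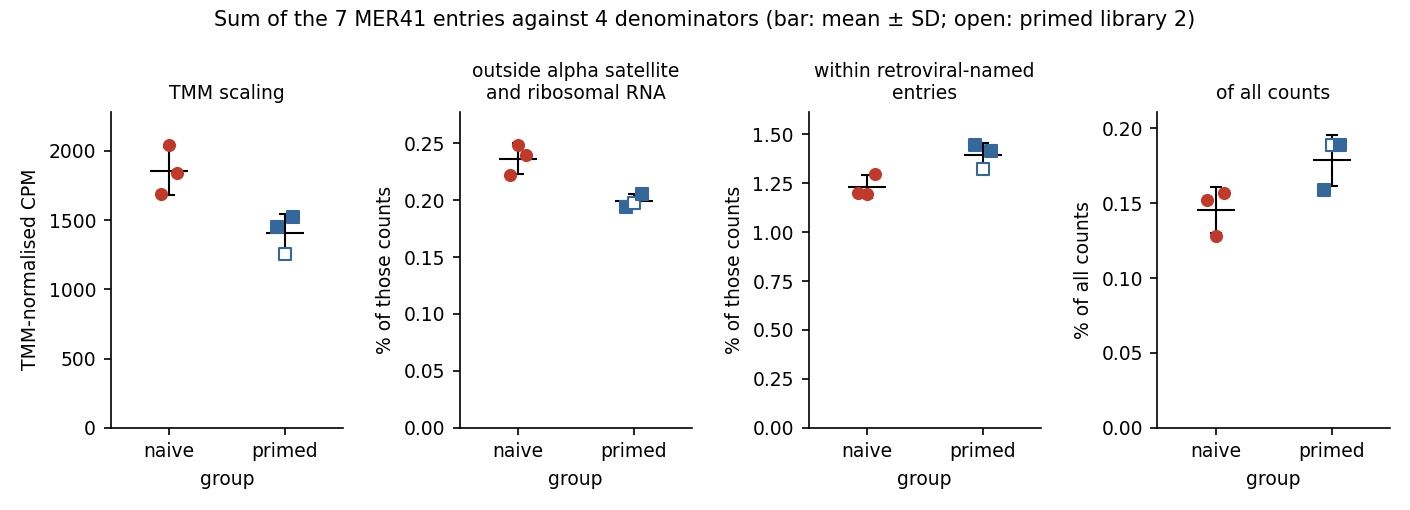
Summed MER41 counts per library as TMM-normalised CPM, as a share of counts outside alpha satellite and ribosomal RNA, as a share of counts in retroviral-named entries and as a share of all counts, with naive libraries left of primed libraries and bars for the mean ± SD (n = 3). The naive libraries lie above the primed ones in the left pair of panels and below them in the right pair, without overlap in any panel.

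The same dependence on scaling held for the single entries. With library size as the only scaling, MER41-int had a log2 change of -0.07 (edgeR adjusted p = 0.849) and the LTR entries lay between -0.91 and -0.23. MER41G was then called lower (-0.91, edgeR adjusted p = 0.0477), 1 of 7 entries, against 17.0% lower and 1.03% higher of the named repeats in that fit. The median of all repeats tested was -0.61 under this scaling, and that of named repeats -0.42. With simple repeats left out of the fit, MER41-int gave 0.40 ± 0.13 (log2, SE) and did not pass (edgeR adjusted p = 0.103), while the median of named repeats was -0.0086. Set against the median of named repeats under the same scaling, MER41-int lay above it by 0.43 with TMM factors, 0.42 with RLE factors, 0.41 in the fit of named repeats alone, 0.40 with upper-quartile factors and 0.35 with library size alone. A change of factors shifts all entries by nearly the same amount. These values are therefore close to each other by construction and are not separate evidence. Without naive library 2, MER41-int lay above that median by 0.27. Of the 1265 named repeats, 11.1% had a larger log2 change than MER41-int under TMM scaling. For MER41B this share was 27.4%, for MER41A 49.6% and for MER41G 92.5%.

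**Figure D3:**
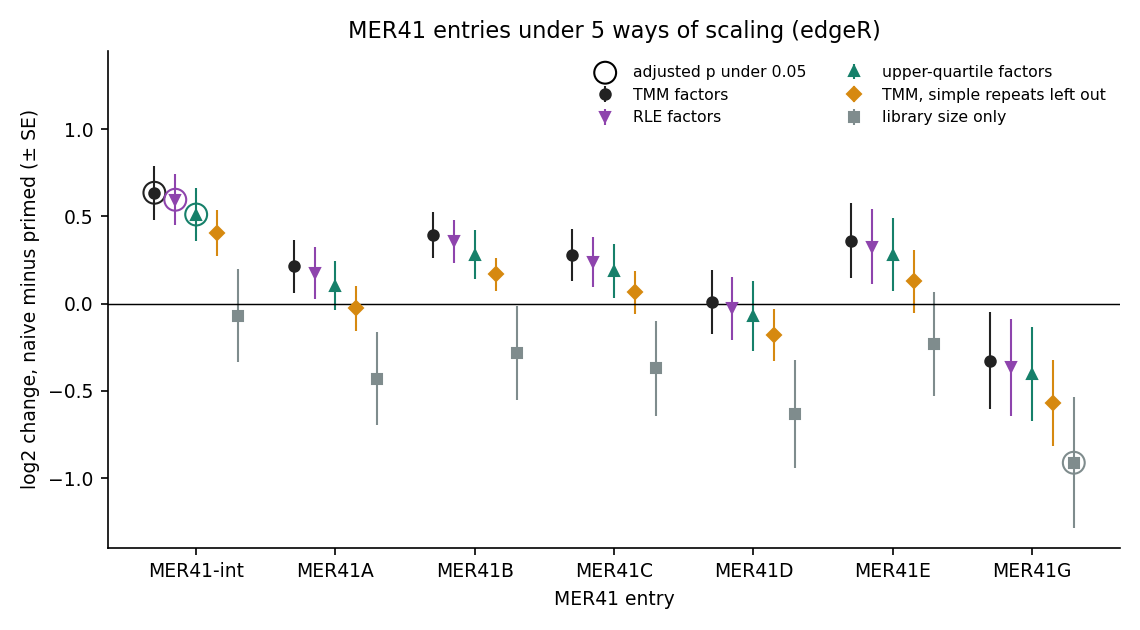
Log2 change of each MER41 entry (naive minus primed, ± SE, edgeR) under TMM, RLE and upper-quartile factors, TMM with simple repeats left out, and library size alone, with rings around values whose adjusted p is under 0.05. MER41-int is ringed under 3 of the 5 scalings, and with library size alone every entry lies below 0, with MER41G ringed at -0.91.

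A ratio of entries within a library does not use a scaling factor, and it addresses whether the internal region moved by more than the LTRs. MER41-int had 0.943, 1.25 and 0.823 reads for each read of MER41A in naive libraries 1 to 3, against 0.671, 0.961 and 0.707 in primed libraries 1 to 3. Of the primed libraries only the shallow library 2 lay within the naive range. The log2 ratio was higher in naive libraries by 0.36 with all libraries (exact two-sided permutation p = 0.3) and by 0.52 without primed library 2 (exact permutation p = 0.2), where the groups did not overlap. It was 0.20 without naive library 2, and between 0.27 and 0.50 without any other library. For MER41C there were 7.88, 8.31 and 6.39 reads of MER41-int for each LTR read in naive libraries, against 5.81, 5.21 and 6.24 in primed libraries. For MER41D there were 17.1, 22.5 and 17.5 in naive libraries, against 13.3, 8.11 and 13.04 in primed libraries. Neither of these ratios overlapped between the groups, with log2 differences of 0.38 and 0.75 and an exact permutation p of 0.1 each, the smallest that 3 against 3 libraries can give. Without primed library 2 these differences were smaller, at 0.31 for MER41C (exact permutation p = 0.2) and 0.52 for MER41D (exact permutation p = 0.1), and the groups stayed apart.

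The ratio to MER41B did not separate the groups. It was 1.85, 2.13 and 1.52 in naive libraries, against 1.59, 1.52 and 1.53 in primed libraries. The log2 difference was 0.23 (exact permutation p = 0.4), and the groups overlapped through naive library 3. It was 0.11 without naive library 2 and 0.36 without naive library 3. The ratio to MER41E gave -0.04 (exact permutation p = 1) and 0.32 without primed library 2, and that to MER41G gave 0.53 (exact permutation p = 0.4), 0.99 without primed library 2 and 0.16 without primed library 1. Adjusted over the 6 ratios, the p-values lay between 0.3 and 1. With 3 against 3 libraries this test cannot give a p below 0.1, which is above the threshold for a call. It therefore cannot decide whether the internal region differed from any LTR entry. By their values alone, the ratios to MER41C and MER41D were apart between the groups, and those to MER41A, MER41B, MER41E and MER41G overlapped. As a part of all MER41 counts, MER41-int took 34.9%, 39.8% and 31.3% in naive libraries 1 to 3, against 28.7%, 32.6% and 29.2% in primed libraries 1 to 3. These groups overlapped, and the 95% Wilson interval for primed library 2 is 26.8% to 39.0%.

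**Figure D4:**
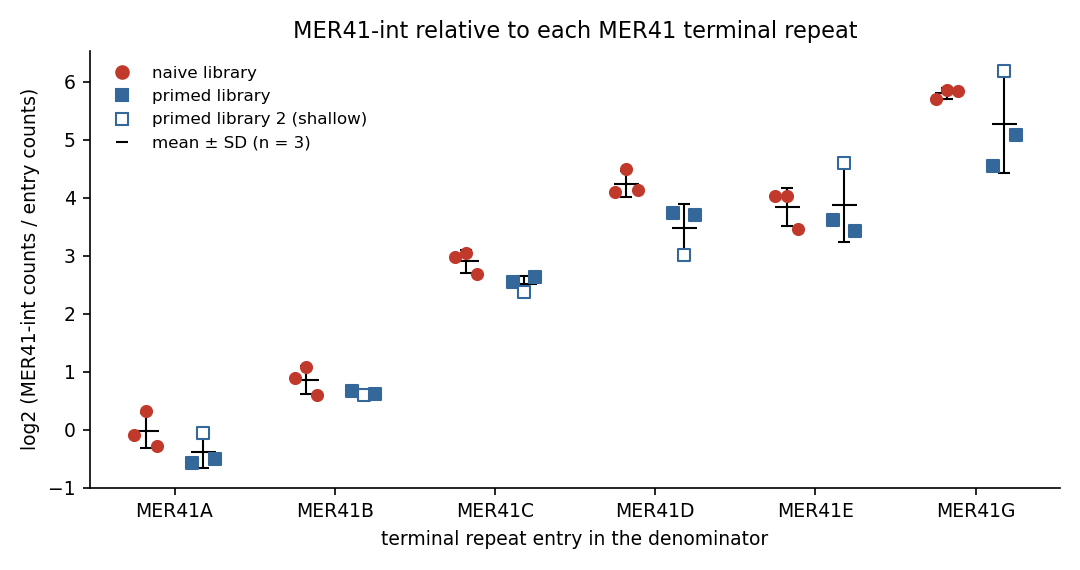
Log2 of MER41-int counts over the counts of each MER41 LTR entry in each library, with naive libraries as circles left of primed libraries as squares, primed library 2 open, and bars for the mean ± SD (n = 3). The groups are apart for MER41C and MER41D, and for MER41A and MER41G only the open square does not lie below all naive libraries.

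Other class I retroviral families with MER names were read beside MER41 in the same fit. In the MER4 family 2 of 13 entries were called, both higher, with a median log2 change of 0.33. The calls were MER4-int, an internal region (0.64 ± 0.15, SE; edgeR adjusted p = 0.0236), and MER4A1_v (0.84 ± 0.24; 0.0454). In MER61, known in human cells for LTRs bound by p53, 4 of 7 were called, all higher, with a median of 0.60, that of its internal region MER61-int (0.60 ± 0.16; edgeR adjusted p = 0.0315). Larger changes were those of the LTR entries MER61A (1.07 ± 0.17; edgeR adjusted p = 0.00959) and MER61D (0.95 ± 0.17; 0.0117). In MER57, 3 of 12 were called, all higher, with a median of 0.29, namely MER57-int (0.75 ± 0.14; edgeR adjusted p = 0.0133) and the LTR entries MER57A1 (0.67 ± 0.15; 0.0220) and MER57B2 (0.56 ± 0.14; 0.0266). In MER65, MER66 and MER67 together, 1 of 14 was called higher, MER65-int (0.47 ± 0.13; edgeR adjusted p = 0.0412), and 1 lower, MER67B (-0.59 ± 0.15; 0.0301), with a median of 0.12. MER41, with 1 of 7 and a median of 0.28, lay between these families. Without primed library 1, 0 entries of MER41 and of the 46 in these families were called by edgeR, with 17 of these 53 at an unadjusted p under 0.05, 16 of them higher. In that fit 7 named repeats were called higher in all, against 131 with all libraries.

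**Figure D5:**
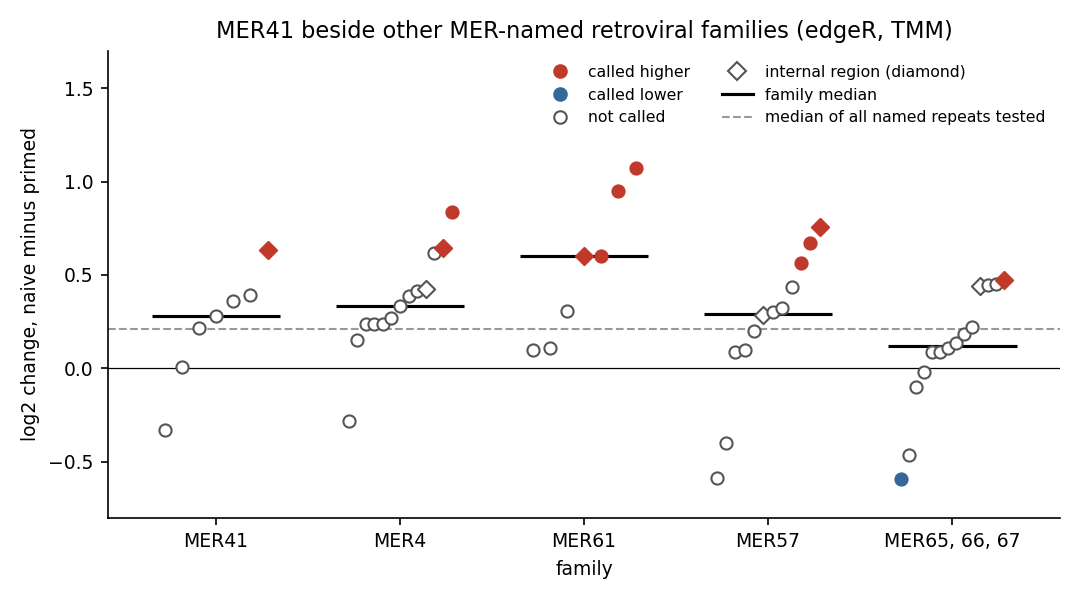
Log2 change (naive minus primed, edgeR with TMM scaling) of each entry of MER41 and of 4 groups of MER-named retroviral families, filled where called, with diamonds for internal regions, a black line for each median and a dashed line for the median of all named repeats tested. MER41-int is the only filled point of MER41 and lies near the filled diamonds of MER4 (0.64), MER61 (0.60) and MER57 (0.75).

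The pattern of summed MER41 over the 6 libraries was most like that of LTR8, another retroviral LTR. Likeness was the root mean square distance over the 6 libraries between log2 CPM values, each centred on its own mean, so levels were not compared. It was ranked among 976 named repeats with a mean of at least 20 CPM. LTR8 lay at a distance of 0.0479 and averaged 675 ± 26.6 CPM over naive libraries and 518 ± 47.5 CPM over primed libraries (SD, n = 3 each). It was followed by MSTA, an LTR of the MaLR group (0.0599), MER4A1 (0.0600), MamRep605 (0.0609) and MLT1O, also of the MaLR group (0.0633). Of these 5 repeats, MSTA and MamRep605 were called higher, with log2 changes of 0.46 ± 0.13 (SE; edgeR adjusted p = 0.0400) and 0.44 ± 0.13 (0.0421). All repeats of a library share its scaling factor in this measure, so it describes these libraries only.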

How the data were processed

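Chromatin-bound RNA of 3 naive and 3 primed H9 libraries was counted per repeat name. The authors deposited whole-number counts without visible normalisation. Per the submitters' processing notes the tools were Trimmomatic 0.39, STAR 2.7.8a, featureCounts and Subread 2.14.2. Which genome build and repeat annotation served, whether strand was used in counting and how reads with several matches were treated is not given in the sources used. Per the labels' protocols the library kit was directional.

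Columns were matched to samples by title, and groups come from the treatment label. edgeR 4.0.16 (R 4.3.3) was run on the whole table with filterByExpr, TMM factors, the quasi-likelihood F-test (naive over primed), and Benjamini-Hochberg adjustment over all 3219 repeats tested at 0.05. The standard error is the log2 change divided by the square root of F. All 7 MER41 entries passed the filter on low counts, and the tested entries held between 99.7% and 99.9% of each library. CPM are TMM-normalised unless said otherwise. For ratios within a library an exact permutation test, two-sided, was used. Shares carry 95% Wilson intervals, which cover counting error only, since reads are not independent molecules. The procedure was tested on simulated data, which were not built with the alpha satellite difference between the groups. That test therefore does not address the dependence on scaling. DESeq2 1.42.0, other scalings and filters, thinning and leaving out libraries were alternatives. Figures were drawn with matplotlib 3.10.9.

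The MER41 entries, the family lists and the tests were chosen with earlier results of these data known. All 7 MER41 entries are named, with up to 3 called entries of each other family, the marker repeats and the 5 repeats most like MER41. Same-numbered libraries had correlations of their deviations from the group means of 0.150, 0.0224 and 0.0666 over 1265 named repeats, so the replicate numbers were not taken to pair them.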

Additional observations from a re-analysis of the deposited data

How the results depend on the processing

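Of 16 alternatives for MER41-int, 15 gave a positive log2 change and 11 kept the call. The call was lost with library size alone, with simple repeats left out (0.40) and after thinning to the depth of primed library 2 (1.08). After thinning, 4 of the 7 entries could be fitted, and MER41-int had an SE of 1.04. That fit called 1 of 845 repeats in all, so a lost call there is not particular to MER41-int. The fits without 1 library gave 0.49 to 0.76, and 4 of these 6 kept the call. It was lost without naive library 2 (0.49) and without primed library 1 (0.60), in fits that called 44 and 7 named repeats higher. With library size alone the value was -0.068 and the entries called were 0 higher and 1 lower, in a fit that called 28 higher and 1051 lower of all 3219 repeats. The count called higher was 0 with simple repeats left out and after thinning, and between 0 and 2 without 1 library, with 2 (MER41-int and MER41B) without naive library 1. Calls also rose over the named repeats in that last fit, to 203 of 1271 higher. Library size alone also turned MER41A (-0.43), MER41B (-0.28), MER41C (-0.37), MER41D (-0.63) and MER41E (-0.23). MER41A was also below 0 with simple repeats left out (-0.027) and after thinning (-0.10), as was MER41B after thinning (-0.43). MER41D also gave -0.026 with RLE factors, -0.072 with upper-quartile factors, -0.019 with DESeq2, -0.0053 without a filter, -0.040 without alpha satellite and ribosomal RNA, -0.18 with simple repeats left out, -0.024 with the replicate block, and -0.097 to 0.092 without 1 library. Apart from scaling and construction, the cause of these changes was not tested.

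The summed level, 0.40 as the log2 of group means, became -0.30 with library size alone. The log2 share of all counts, -0.30, became 0.25 outside alpha satellite and ribosomal RNA and 0.065 among retroviral entries other than the marker repeats, the last chosen after seeing the data. The MER41-int to MER41E ratio, -0.04, became 0.090 with 1 added to each count and lay between -0.27 and 0.32 without 1 library. With library size alone 0 entries of the other families were called higher and 7 of 46 lower (1 in MER4, 2 in MER57, 4 in MER65, MER66 and MER67). Of all named repeats, 1.03% were called higher and 17.0% lower in that fit. Entries called higher were, with simple repeats left out, 0 in MER4, 2 in MER61, 1 in MER57 and 0 in MER65, MER66 and MER67. Of all 1265 named repeats in this second fit, 31 were called higher and 17 lower. The fit with the replicate block kept the MER41-int call (0.60, edgeR adjusted p = 0.00089) and changed no other MER41 call. That fit called 232 of 1265 named repeats higher and 41 lower, against 131 and 15 in the main fit. Calls thus rose over the named repeats, and the smaller p is not particular to MER41-int. Of the 6 libraries, 5 correlated best with their own number. Primed library 2 held 224 MER41 counts in all, which limits the precision of its values.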

Other observations

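Internal regions of retroviruses, grouped by the ending of their names after the values were seen, were set beside the other named repeats of the same fit without a test. Of 102 internal entries 26 were called higher (25.5%) and 1 lower, with a median log2 change of 0.31. Of the 1163 other named entries 105 were called higher (9.03%) and 14 lower, with a median of 0.20. MER41-int had the log2 change of rank 21 from the highest among the 102. Its value of 0.64 lay above each of the 6 MER41 LTR entries. MER57-int (0.75) likewise lay above all 10 MER57 LTR entries and MER65-int (0.47) above all 4 MER65 LTR entries. In MER4, 1 of 11 LTR entries (MER4A1_v, 0.84) lay above MER4-int (0.64), in MER61 3 of 6 LTR entries lay above MER61-int (0.60), and in MER66 2 of 4 LTR entries lay above MER66-int (0.44). The other MER57 internal entry, MER57A-int, stood at 0.28. HERV17-int, of the HERV-W group, stood at 0.64 ± 0.16 (SE; edgeR adjusted p = 0.0307), close to MER41-int.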
